A study of Mus musculus with 6 samples.

Results

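The histone cluster genes are the gene copies that encode the core histones H2A, H2B, H3 and H4 and the linker histone H1, and they were taken as every gene of the deposited table whose symbol starts with Hist and a digit. The rule gave 68 of 21958 protein-coding genes, or 0.310% of the table, and used no measured value. By symbol, 6 are H1, 19 H2A, 18 H2B, 12 H3 and 13 H4 genes, and the H2A member Hist1h2al is a processed pseudogene in Gencode vM21. Hist1 symbols on chromosome 13 belong to 55 of the members, 54 of them without Hist1h2al, which lies outside the cluster. Hist2 on chromosome 3 holds 10, Hist3 on chromosome 11 holds 2, and Hist4 on chromosome 6 is a single H4 gene.

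Synaptoneurosomes, a filtered brain fraction enriched in synapses with both their pre- and postsynaptic sides, were prepared from the hippocampus and adjacent cortex of FVB mice aged 6 to 8 weeks. In the group called NMDA polyribosomes (n = 3 libraries), synaptoneurosomes received a pulse of 50 µM NMDA and 10 µM glutamate for 30 s, then 120 µM of the receptor antagonist APV, and were incubated for 20 min before the polyribosomal fractions of a sucrose gradient were pooled and their RNA extracted. In the group called unstimulated total (n = 3 libraries), total RNA came from synaptoneurosomes without stimulation and not from gradient fractions. In its section on RNA isolation the paper extracts this RNA from an aliquot of synaptoneurosomes. Its section on polyribosomes instead keeps part of the supernatant of a centrifuged lysate as the total fraction. Which of these applies to the libraries used here could not be told. Each preparation pooled the tissue of 6 mice and was divided into aliquots, so that libraries with the same replicate number share a preparation. The paper warmed stimulated aliquots for the incubation and kept unstimulated controls on ice with cycloheximide, an inhibitor of protein synthesis. It does not state this separately for the total RNA aliquots. Stimulation, fraction and such handling differ together between the groups and cannot be told apart. The fraction holds RNA of several cell types, and fewer cells of a type cannot be told apart from less RNA per cell.

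In the nucleosome, H2A pairs with H2B and H3 with H4, and H1 binds the DNA that links nucleosomes. The replication-dependent copies are transcribed mainly in S phase of dividing cells, and their mRNAs usually end in a conserved stem-loop instead of a poly(A) tail. The stem-loop is bound by the protein Slbp, which serves in the processing, translation and decay of these mRNAs. The libraries were depleted of ribosomal RNA with no poly(A) selection stated, a preparation that can retain mRNAs without a tail.

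The stem-loop was searched in the coding transcripts of Gencode vM21 (GRCm38) as 6 stem bases, a loop of 4 bases and the 6 complementary stem bases, with a stem of the form GGNNCT, a loop TTTN and the closing stem AGNNCC on the sense strand. It was found in 44 of the 68 members and, over the whole annotation, in 49 of 21901 coding genes (0.224%). The other 5 genes were H2afx, H2bfm, Nova2, Syncrip and Trim17, of which Trim17 overlaps the member Hist3h2a. The forms are shown because they fall apart by class, with the loop in capitals. The first 3 forms occurred in H4 genes and in no other member, and the last 3 in members of H1, H2A, H2B and H3.
H4 form of 7 members, Hist1h4d and Hist1h4h among them: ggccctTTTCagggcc
H4 form of Hist1h4i and Hist2h4: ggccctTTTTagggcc
H4 form of Hist1h4b and Hist1h4j: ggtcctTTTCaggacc
Form of 26 members of the other classes, Hist1h1c and Hist1h1e among them: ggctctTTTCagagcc
Form of 6 members, Hist1h2bb, Hist1h3e and Hist1h3f among them: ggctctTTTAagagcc
Form of Hist2h2ac: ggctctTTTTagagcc
In Hist1h4d the stem-loop lies at chr13:23581950-23581965 on the plus strand, 36 bases after the stop codon, and over the 43 members where the distance could be measured it was 21 to 58 bases, with a median of 31. The search tells nothing about the members without a match, since some annotated models end before the place where a stem-loop would lie.

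The members were compact genes. A single exon was annotated for 63 of 68 (92.6%), against 7.24% of the genes of the table. Their median length was 478.5 bases against 2525 bases, and their median GC content was 60.3% against 49.1%. In 12 pairs, each an H2A and an H2B gene, transcription starts in opposite directions from starts 236 to 306 bases apart.

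A RefSeq promoter (GRCm38.p6, 250 bases before to 50 bases after the start) was matched to 61 members. The letters TATAAA on the sense strand stood in 30 of them (49.2%) against 8.88% of 27025 promoters, and CCAAT on either strand in 52 (85.2%) against 37.9%. A promoter of an H4 gene and the stretch shared by a divergent pair are printed because both belong to members described below. The promoter of Hist1h4d lies on the plus strand at chr13:23581318-23581617. That of Hist1h2ac lies on the minus strand at chr13:23683910-23684209 and covers most of the interval between its start and that of Hist1h2bc. Capitals mark TATAAA and CCAAT or its complement ATTGG.
Hist1h4d promoter: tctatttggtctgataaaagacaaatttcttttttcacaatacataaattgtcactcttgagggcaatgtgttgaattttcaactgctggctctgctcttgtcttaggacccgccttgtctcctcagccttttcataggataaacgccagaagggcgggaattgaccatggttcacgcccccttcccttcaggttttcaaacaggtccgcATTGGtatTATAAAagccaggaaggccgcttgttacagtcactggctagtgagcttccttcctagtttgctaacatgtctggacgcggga
Hist1h2ac promoter: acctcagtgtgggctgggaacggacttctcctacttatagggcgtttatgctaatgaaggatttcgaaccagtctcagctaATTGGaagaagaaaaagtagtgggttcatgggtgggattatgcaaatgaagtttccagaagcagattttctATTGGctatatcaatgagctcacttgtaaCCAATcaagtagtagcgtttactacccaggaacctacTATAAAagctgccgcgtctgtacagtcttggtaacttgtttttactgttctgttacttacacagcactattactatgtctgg
The window of Hist1h4d holds TATAAA at 32 bases before the start and 1 CCAAT, and that of Hist1h2ac holds TATAAA at the same distance and 3 CCAAT.

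Copies within a class are near-identical in their coding sequence, so which copy a read belongs to can be uncertain. Over all pairs of members with the same coding length, the median identity was 96.4% for 15 H2A genes, 96.6% for 15 H2B genes, 97.6% for 11 H3 genes and 93.9% for 13 H4 genes. The H4 genes encode the same or nearly the same protein in background knowledge, and differ at the nucleotide level. The first 90 coding bases of the H4 copies that passed the test below are printed to show the differences a 100-base read can use, with bases that differ from Hist1h4d in capitals.
Hist1h4d, plus strand, chr13:23581602-23581691: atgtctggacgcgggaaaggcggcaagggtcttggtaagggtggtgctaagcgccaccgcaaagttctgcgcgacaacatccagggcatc
Hist1h4h, plus strand, chr13:23531115-23531204: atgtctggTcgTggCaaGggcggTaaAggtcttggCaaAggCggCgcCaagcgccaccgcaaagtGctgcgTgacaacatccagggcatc
Hist1h4a, minus strand, chr13:23761068-23761157: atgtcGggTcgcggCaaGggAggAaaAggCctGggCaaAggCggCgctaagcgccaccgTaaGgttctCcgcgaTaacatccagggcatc
Hist1h4i, minus strand, chr13:22041234-22041323: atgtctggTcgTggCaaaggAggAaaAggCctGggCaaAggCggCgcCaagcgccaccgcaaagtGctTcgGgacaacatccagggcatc
Hist1h4h, Hist1h4a and Hist1h4i differed from Hist1h4d at 13, 17 and 16 of these bases.

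Uniqueness was measured as the share of a member's 100-base windows that occur in no transcript of another gene. It was 100% for Hist1h4d, 61.5% for Hist1h4h and 0% for several copies. No count in any library was listed for 7 members. For 4 of them, Hist2h2aa1, Hist2h3c1, Hist1h2bq and Hist1h2br, under 1% of windows were unique. The other 3, Hist1h1t, Hist1h2ba and Hist1h2aa, are genes known from testis, and 72.6% to 100% of their windows were unique. A count of 0 over the 27203418 counts of all libraries allows a level of up to 0.110 CPM (counts scaled to library size), for counting error only. Over the 16 members with under 20% unique windows, 12 had a count, and their summed counts were small. Hist2h2bb, Hist2h3b and Hist2h2aa2 had 67, 21 and 16 counts with 0% unique windows, so a low share did not always go with a count of 0.

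**Figure D1:**
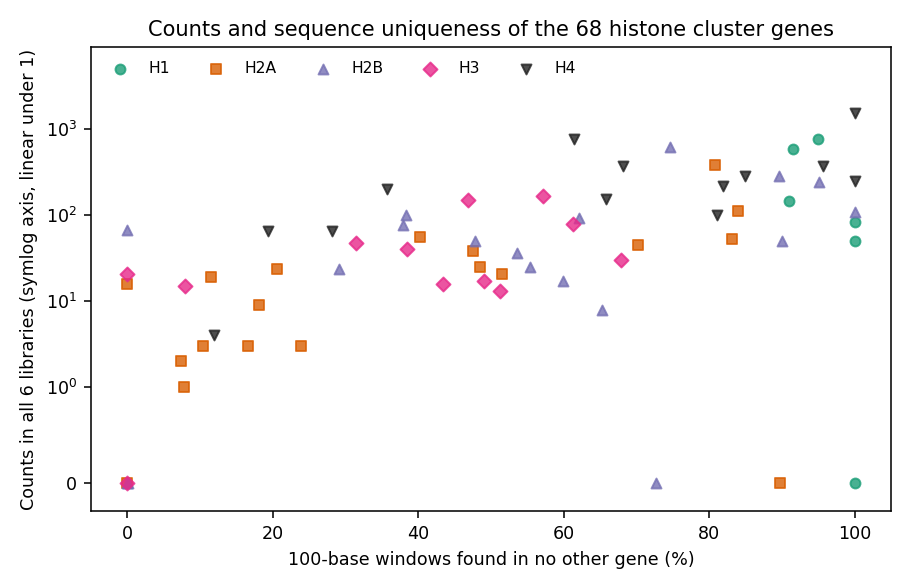
Each point is one of the 68 histone cluster genes, with its share of 100-base windows found in no other gene (x axis, %) and its counts in all 6 libraries (y axis, symmetric log axis that is linear under 1), by class. Hist1h4d stands at the upper right with 100% unique windows, the 4 near-identical copies without counts lie at the lower left, and the 3 testis genes lie at 0 counts on the right.

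The counts on all genes summed to between 5294482 and 7361580 in the polyribosome libraries and between 1044955 and 3738022 in the total libraries, with total replicate 3 the shallowest. Neuronal markers were present in both groups, with a summed level of Snap25, Syt1, Rbfox3, Slc17a7, Gad1 and Camk2a of 7400 to 9280 CPM on polyribosomes and 7373 to 8531 CPM in total RNA.

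Histone cluster genes took 2473 to 2673 counts in a polyribosome library and 250 to 704 counts in a total library. As a share of all counts this was 0.0363%, 0.0361% and 0.0496% on polyribosomes and 0.0188%, 0.0196% and 0.0239% in total RNA. In TMM-normalized CPM, the summed level of all 68 members was 361, 372 and 539 on polyribosomes replicates 1 to 3, and 174, 190 and 239 in total RNA. The groups did not overlap, and the lowest polyribosome library stood above the highest total library. The ratio of the means was 2.11-fold, or 1.07 on the log2 scale, and the log2 ratio within the same-numbered pairs was 1.06 ± 0.11 (SD, n = 3 pairs). This sum rests on no filter. The 41 members that were too low for the gene-by-gene test had a summed 38.7 ± 0.622 CPM on polyribosomes and 22.6 ± 5.03 CPM in total RNA (SD, n = 3), a log2 ratio of the means of 0.78.

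H4 genes held the largest part of the histone counts and had the largest mean ratio between groups of the 5 classes, though in pair 1 the log2 ratio of H2A, 1.32, was above that of H4, 1.27. Their summed level was 158, 185 and 293 CPM on polyribosomes and 65.9, 78.5 and 103 CPM in total RNA. All polyribosome libraries were above all total libraries, and the log2 ratio within pairs was 1.34 ± 0.15 (SD, n = 3). H4 took 49.3 ± 5.20% of histone counts on polyribosomes and 40.7 ± 2.74% in total RNA, so the mean shares differed by more than either SD.

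H2A genes summed to 30.9, 36.1 and 43.1 CPM on polyribosomes and to 12.4, 19.4 and 23.9 CPM in total RNA, with a log2 ratio within pairs of 1.02 ± 0.26. H2B genes, their partners in the nucleosome, summed to 76.8, 72.7 and 83.4 CPM and to 41.1, 45.4 and 41.1 CPM, with 0.87 ± 0.17. In both classes the groups did not overlap. The H2A ratio leaned on Hist1h2al, which Gencode vM21 lists as a processed pseudogene outside the cluster. Without it, a choice made after the values were seen, the ratio was 0.86 ± 0.03.

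H3 genes had the smallest ratio. They summed to 21.7, 25.8 and 25.9 CPM on polyribosomes and to 16.8, 17.0 and 17.2 CPM in total RNA, with a log2 ratio within pairs of 0.52 ± 0.13 and no overlap. H1 genes summed to 72.9, 51.8 and 94.3 CPM and to 38.1, 30.1 and 53.6 CPM. The H1 groups overlapped, since total replicate 3 stood above polyribosome replicate 2, but the ratio within pairs was 0.85 ± 0.08. The 55 members outside H4 together gave 0.83 ± 0.08 (SD, n = 3 pairs), below the H4 values of 1.27, 1.24 and 1.50. The differences between classes were not tested.

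**Figure D2:**
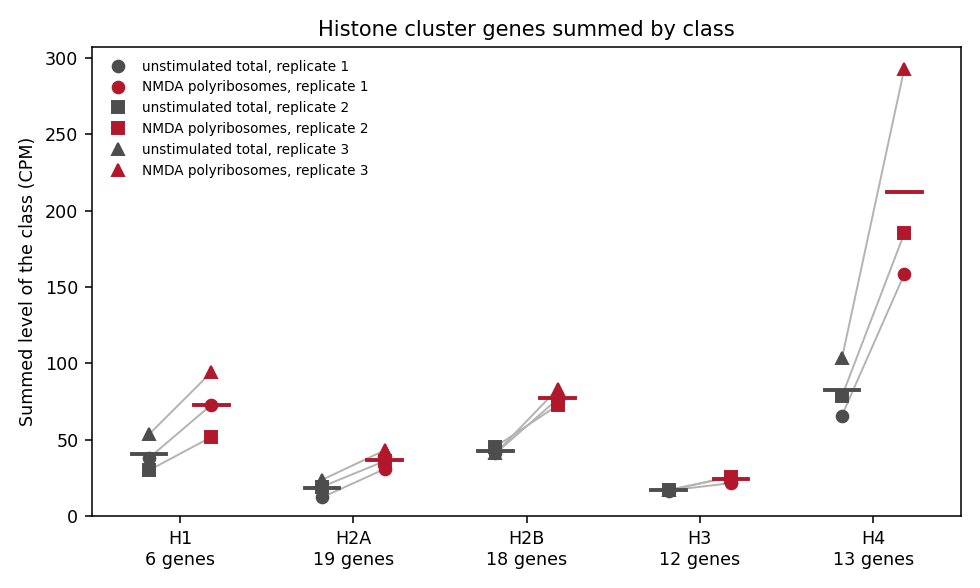
Summed level of each histone class (y axis, CPM from 0) in the unstimulated total (grey) and NMDA polyribosomes (red) libraries, with grey lines joining libraries of the same replicate number and bars at the group means. In CPM, H4 differs most, with 65.9 to 103 CPM in total RNA and 158 to 293 CPM on polyribosomes, and H3 differs least.

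By cluster, the 55 Hist1 genes gave a log2 ratio within pairs of 1.16 ± 0.09 (SD, n = 3) and the groups did not overlap, and without Hist1h2al the ratio was 1.16 ± 0.10. Hist2 gave 0.47 ± 0.15, and its groups overlapped at 20.5 to 34.1 CPM on polyribosomes and 15.1 to 22.0 CPM in total RNA. Hist3 gave 0.47 ± 0.34. The only member of Hist4, Hist4h4, differed most between pairs, with -0.04, 0.97 and 1.34.

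Members were also compared gene by gene with edgeR's quasi-likelihood test at an adjusted p under 0.01, with log2 fold changes positive where polyribosomes were higher. The expression filter, a level of 2.21 CPM in at least 3 libraries, kept 27 members and 12255 genes. Of the 27, 16 were over that level in all 6 libraries and 9 were over it in the 3 polyribosome libraries and in fewer than 3 total libraries. The other 2 were over it in fewer than 3 polyribosome libraries. The 9 were Hist1h2ak, Hist1h2bb, Hist1h2bg, Hist1h2bl, Hist1h3c, Hist1h4b, Hist1h4i, Hist1h4k and Hist2h2be. They passed through the polyribosome group, in which their mean CPM is higher. Their p-values and calls, and counts over the tested members, are therefore descriptions. At least 1 count was present in 61 of the 68 members.

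Of the 27, 5 were higher on polyribosomes, against 0.710% of all genes tested, and 0 were lower, against 289 of 12255 genes. At an unadjusted p under 0.05 the counts were 20 higher, against 15.4% of all genes, and 0 lower, against 17.1%. DESeq2 called 7 higher, against 2.19% of all genes, and 0 lower, against 402 of 12255 genes. It gave no adjusted p to some of the 27, Hist1h4b, Hist1h2ak and Hist1h2bb among them, so these could not be called. The 5 were the H4 genes Hist1h4h, Hist1h4i, Hist1h4a and Hist1h4d and the H2B gene Hist1h2bc. The median log2 fold change of the 27 was 1.00, that of all genes tested was 0.0010, and 26 of 27 were positive. With the replicate number as a block, 13 members were higher, all of the 5 among them, against 11.8% of all genes. With the block 0 members were lower, against 1623 of 12255 genes. Without the expression filter and the block, 9 of 61 members were higher, against 2.84% of all genes. The 8 added by the block were Hist1h1c, Hist1h1e, Hist1h2ak, Hist1h2al, Hist1h2bb, Hist1h4b, Hist1h4k and Hist2h4.

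Without a filter or a fit, the 3 polyribosome values lay above the 3 total values for 25 of the 61 members with a count, against 14.4% of the 16736 genes with a count. For 0 members did all polyribosome values lie below, against 15.1%. Of the 25, 10 were H4 genes, 7 H2B, 3 H2A, 3 H3 and 2 H1. Among them, 7 were members too low for the test, such as Hist1h4m with 2, 1 and 1 counts on polyribosomes and 0 in total RNA. The total libraries were shallower, so at such counts a 0 there is likelier, and the share over all genes is not matched for level.

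The calls depended on single libraries and on a correction for sequence composition. Without total replicate 1 or without total replicate 2, 0 of the 37 members tested in each fit passed in edgeR, and DESeq2 was not run on these subsets. Over all genes, 2 of 12714 (0.0157%) and 0 of 12743 (0.00%) were then higher. Without polyribosome replicate 1, 5 members passed, against 0.391% of all genes, and without total replicate 3, 4 passed, against 0.483%. Without polyribosome replicate 2, 1 member passed, against 11 of 12310 genes (0.0894%), and without polyribosome replicate 3, 3 passed, against 42 of 12270 (0.342%). With an offset for GC content and length, 2 members passed without the block (Hist1h4h and Hist1h2bc), against 29 of 12244 genes (0.237%), and 8 with it, against 8.67% of all genes. The median log2 fold change of the members then was 0.39 and 0.42. With the block and the offset, it was 0.79 for the 11 tested H4 genes and 0.19 for the 16 tested members outside H4.

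GC content moved with the comparison over all genes. The 3117 other genes tested with a GC content of at least 55% had a median log2 fold change of 0.32, and the 9100 under it had -0.12. Among the 180 other genes that were also shorter than 1000 bases the median was 0.55, and for the 17 members in that range it was 1.00. In the bins of GC content the median of other genes went from -0.56 at 37% to 0.51 at 63%. Of the tested members, 4 had a GC content under 50%, namely Hist1h2bc, Hist4h4, Hist1h2be and Hist2h2be. The offset with the block left their log2 fold changes at 1.18, 0.76, 0.70 and 0.011.

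**Figure D3:**
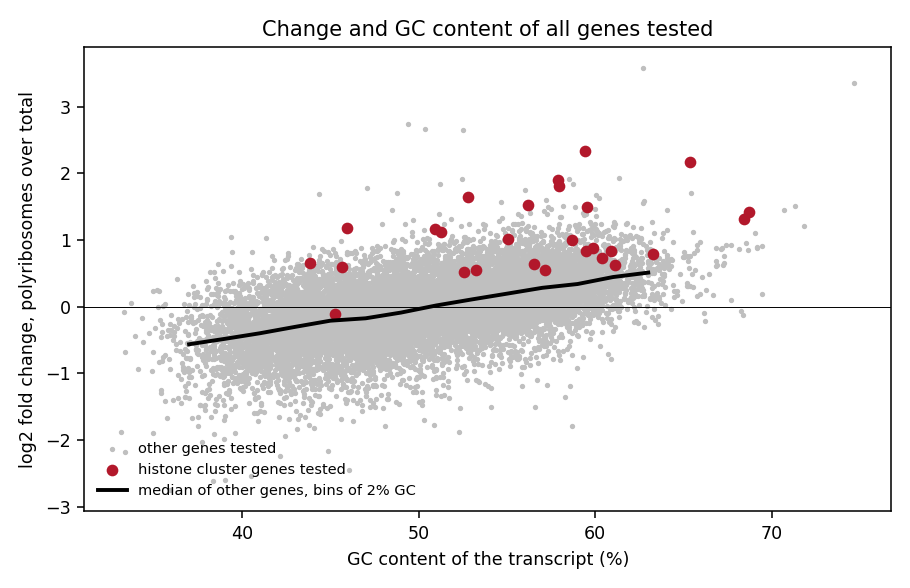
Log2 fold change on polyribosomes over total RNA (y axis) against the GC content of the transcript (x axis, %) for each gene tested, with the 27 histone cluster genes in red and the median of the other genes in bins of 2% GC as a black line. The line climbs from -0.56 to 0.51, and nearly all histone cluster genes lie above it.

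Hist1h4d, an H4 gene on chromosome 13 (23581598 to 23581990, single exon, plus strand), was the most abundant member per length, at 194 CPM per kb on polyribosomes and 74.0 CPM per kb in total RNA. Its level was 53.2, 66.4 and 110 CPM on polyribosomes and 21.5, 22.7 and 43.0 CPM in total RNA. The lowest polyribosome library was above the highest total library, and replicate 3 was the highest in both groups. The log2 fold change was 1.50 (SE 0.29, adjusted p = 0.00676, edgeR's quasi-likelihood test) and 1.40 with the block. With the block and the GC and length offset it was 0.79 (adjusted p = 7.99e-07, edgeR). It passed in 3 of the 6 fits that left out a library.

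Hist1h4h (23531050 to 23531522, plus strand) had 28.5, 31.0 and 57.5 CPM on polyribosomes and 7.18, 12.03 and 14.3 CPM in total RNA. The groups were far apart, and again replicate 3 was highest in both. Its log2 fold change was 1.90 (SE 0.32, adjusted p = 0.00313, edgeR's quasi-likelihood test), and 1.21 with the block and the offset. It passed in 4 of 6 fits without a library. Of its windows 61.5% were unique, so part of its sequence is shared with other H4 copies.

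Hist1h4a (23760692 to 23761230, minus strand) had 13.2, 16.5 and 24.0 CPM on polyribosomes and 4.71, 6.01 and 10.5 CPM in total RNA. The groups did not overlap. The log2 fold change was 1.52 (SE 0.31, adjusted p = 0.00804, edgeR's quasi-likelihood test), and 0.94 with the block and the offset. It passed in 2 of 6 fits without a library.

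Hist1h4i (22040636 to 22041362, minus strand) rested on few counts in total RNA, with 86, 77 and 85 counts on polyribosomes and 16, 18 and 1 in total RNA. In CPM this was 11.6, 11.6 and 17.5 against 3.96, 6.01 and 0.956. The groups did not overlap, and the single count of total replicate 3 gave its pair a log2 ratio of 4.19 against 1.55 and 0.94 in the other two. The log2 fold change was 1.64 (SE 0.33, adjusted p = 0.00808, edgeR's quasi-likelihood test), and the call was lost in each of the 6 fits that left out a library. As Hist1h4i passed the filter through the polyribosome group, its p-value is a description.

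The other H4 genes tested were Hist1h4b, Hist1h4k, Hist2h4, Hist1h4j, Hist1h4c, Hist1h4f and Hist4h4. Their log2 fold changes ran from 0.65 (Hist4h4) to 2.33 (Hist1h4b), and none passed edgeR's test without the block under the expression filter. Without the filter edgeR called Hist1h4b and Hist1h4k higher, and DESeq2 called Hist1h4k. DESeq2 gave no adjusted p to Hist1h4b and Hist1h4j. Hist1h4b had 397 bases with 28.2% unique windows, and Hist1h4k had 35.7%. Hist1h4m and Hist1h4n, which are identical in the first 90 coding bases, were not tested, with 4 and 66 counts in all libraries.

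Hist1h2bc (23684199 to 23692488, plus strand) varied least between replicates among the members described one by one. It had 28.7, 26.1 and 27.1 CPM on polyribosomes and 12.1, 11.7 and 12.4 CPM in total RNA. Its log2 fold change of 1.18 (SE 0.19, adjusted p = 0.00277, edgeR's quasi-likelihood test) was the same within rounding after the block and the offset, and ranged from 1.14 to 1.22 without each library. It passed in 3 of those 6 fits. Its counted model has 1156 bases of 45.9% GC and no stem-loop match.

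Hist1h2be had 11.3, 11.6 and 12.7 CPM on polyribosomes and 7.18, 8.69 and 7.65 CPM in total RNA. The groups did not overlap, but the log2 fold change of 0.59 (SE 0.22, adjusted p = 0.0821, edgeR's quasi-likelihood test) did not pass. Hist2h2be was the only tested member with a negative value, -0.12 (SE 0.36, adjusted p = 0.854, edgeR's quasi-likelihood test). It had 3.78, 3.46 and 4.52 CPM on polyribosomes and 5.20, 4.34 and 0.956 CPM in total RNA, and its groups overlapped. Without total replicate 1 the sign turned, with a log2 fold change of 0.21. The remaining tested H2B genes, Hist3h2ba, Hist1h2bl, Hist1h2bg and Hist1h2bb, had log2 fold changes of 0.55, 0.78, 1.00 and 1.81 and did not pass edgeR's test without the block. The 11 H2B genes that were not tested had 0 to 67 counts in all libraries.

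Among the divergent pairs, the H2B partner had the higher level per length (CPM per kb) on polyribosomes in 7 and the H2A partner in 4, and 1 pair had no count. For example, Hist1h2ac had 1.97 CPM per kb on polyribosomes beside 23.6 CPM per kb for its partner Hist1h2bc. Of their windows 51.5% and 74.6% were unique. In the reverse case, Hist1h2ak had 12.8 CPM per kb and Hist1h2bn 6.09 CPM per kb, with 84.0% and 47.9% unique windows. In 7 of the 12 pairs the H2B partner had the larger share of unique windows, and the part of uniqueness in these counts was not tested.

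Of 19 H2A genes, 2 were tested. Hist1h2al had 13.1, 16.5 and 25.7 CPM on polyribosomes and 2.72, 8.35 and 14.3 CPM in total RNA, so that total replicate 3 overlapped polyribosome replicate 1. Its log2 fold change was 1.43 (adjusted p = 0.0294, edgeR's quasi-likelihood test), and 0.35 with the block and the offset. Hist1h2ak had 4.32, 6.01 and 4.72 CPM against 1.73, 2.00 and 2.87 CPM without overlap. Its log2 fold change was 1.32 (adjusted p = 0.0286, edgeR's quasi-likelihood test) and passed with the block alone (adjusted p = 0.00400, edgeR). The 17 others had up to 56 counts in all libraries.

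The linker histone gene Hist1h1c (23738808 to 23740367, plus strand) had 38.0, 23.6 and 40.9 CPM on polyribosomes and 19.8, 11.0 and 21.0 CPM in total RNA. Replicate 2 was the lowest in both groups, and the groups did not overlap. The log2 fold change was 1.02 (SE 0.27, adjusted p = 0.0229, edgeR's quasi-likelihood test). With the block it was 0.99 (adjusted p = 8.62e-07, edgeR), and with block and offset it was 0.67 (adjusted p = 0.000539, edgeR).

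Hist1h1e had 22.3, 19.2 and 39.2 CPM on polyribosomes and 10.9, 13.0 and 24.9 CPM in total RNA. The groups overlapped, since total replicate 3 was above polyribosome replicates 1 and 2. Its log2 fold change was 0.88 (adjusted p = 0.0677, edgeR's quasi-likelihood test), passed with the block (adjusted p = 0.000278, edgeR) and was 0.19 with block and offset. Hist1h1d and Hist1h1a had log2 fold changes of 0.83 and 0.64 and did not pass in these fits. Hist1h1b had 50 counts in all libraries and was not tested.

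None of the 3 tested H3 genes passed in these 3 fits or at an unadjusted p under 0.05 without the block. Hist1h3e had 6.21, 6.76 and 7.80 CPM on polyribosomes and 5.70, 3.01 and 5.74 CPM in total RNA. Hist1h3f had 4.72, 6.91 and 6.98 CPM against 3.47, 5.01 and 4.78 CPM, and its groups overlapped. Their log2 fold changes were 0.55 (SE 0.30) and 0.53 (SE 0.31), the lowest after Hist2h2be, and that of Hist1h3c was 0.62. The 9 H3 genes that were not tested had 0 to 48 counts in all libraries. Over all classes, 6 members had counts on polyribosomes and none in total RNA, each with at most 4 counts in all.

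**Figure D4:**
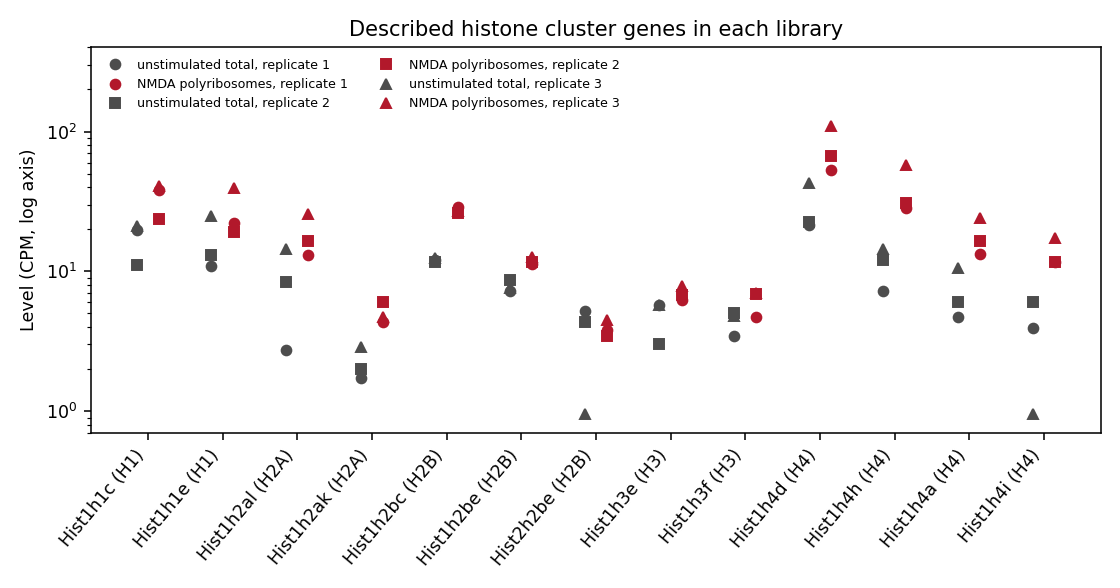
Level (y axis, CPM, log axis) of the 13 members described one by one, in the unstimulated total (grey) and NMDA polyribosomes (red) libraries, with the marker giving the replicate number. Hist1h2bc shows the tightest replicates, and Hist1h4i and Hist2h2be have a single low point at 0.956 CPM in total replicate 3.

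**Figure D5:**
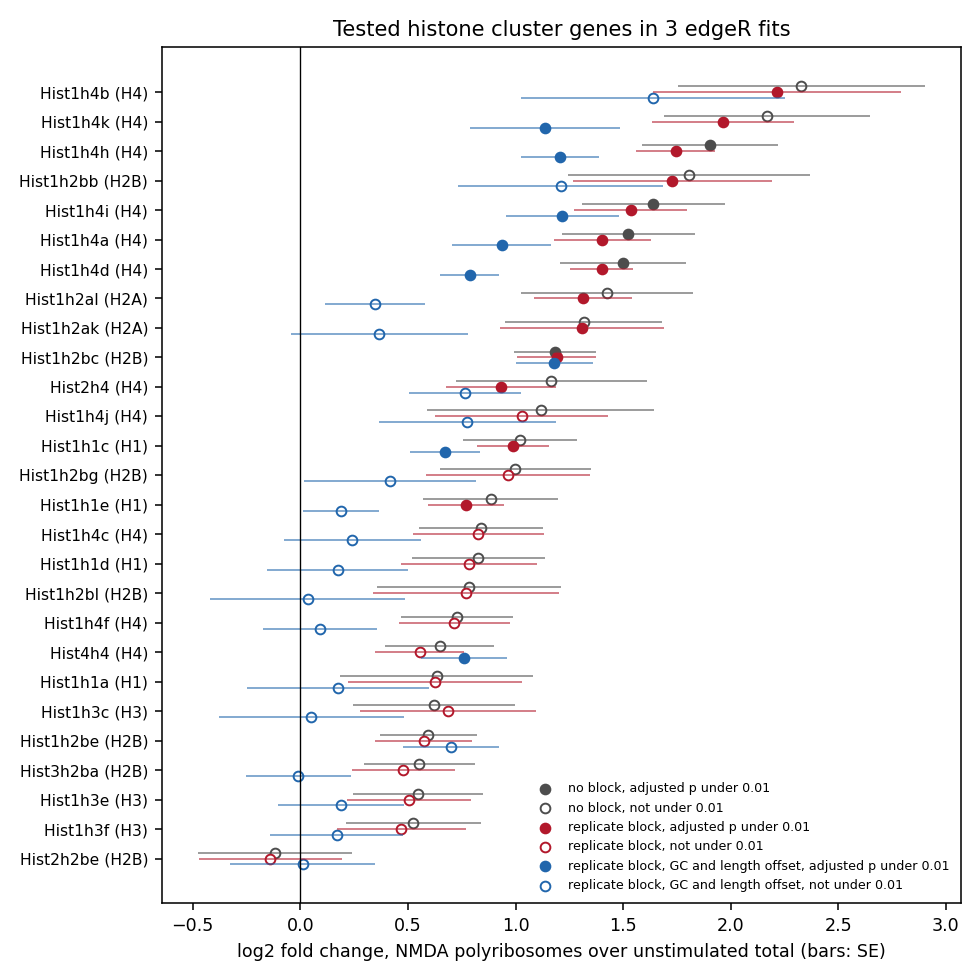
Log2 fold change with its SE (x axis) of the 27 tested members in 3 edgeR fits, ordered by the fit without a block, with filled points for an adjusted p under 0.01. The values with the GC and length offset (blue) lie left of the others for most members, and Hist1h2bc stays at 1.18.

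The models also differ in where they end. Among the 41 members with the stem-loop inside the counted interval, 29 ended within 100 bases after it and 12 ran on for longer, a split chosen after the values were seen. The short models summed to 154, 171 and 266 CPM on polyribosomes and 65.6, 76.5 and 107 CPM in total RNA, with a log2 ratio within pairs of 1.23 ± 0.08 (SD, n = 3). The long models gave 0.81 ± 0.15. The 22 short models outside H4 gave 0.88 ± 0.01, and the 7 short H4 models 1.42 ± 0.12. The 4 long H4 models gave 1.00 ± 0.28.

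Genes that act on histone mRNA were measured beside the members. Of 19 genes, 18 were tested, and the median log2 fold change was -0.18. In edgeR 0 were higher, against 0.710% of all genes tested, and 1 was lower, against 289 of 12255 genes. At an unadjusted p under 0.05, 2 were higher and 3 lower, against 15.4% and 17.1% of all genes. DESeq2 called 0 higher, against 2.19% of all genes, and 2 lower, against 402 of 12255. Slbp, the stem-loop binding protein, had 7.81 ± 2.34 CPM on polyribosomes and 6.79 ± 0.981 CPM in total RNA (SD, n = 3), a log2 fold change of 0.13. Npat, a coactivator of histone gene transcription, had 12.3 ± 3.05 and 16.4 ± 5.20 CPM. Zcchc11, a uridylyltransferase, was the gene that passed, with a log2 fold change of -0.98 (adjusted p = 0.00676, edgeR's quasi-likelihood test). With the block 1 was higher, against 11.8% of all genes, and 2 were lower, against 1623 of 12255.

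Replacement histone variants can be made outside S phase, mostly from polyadenylated mRNAs, and H2afx among them also held the stem-loop in the search above. Of 11, 10 were tested, all with positive values and a median log2 fold change of 0.54. H2afj passed, with 42.3 ± 7.23 CPM on polyribosomes and 18.2 ± 4.24 CPM in total RNA (SD, n = 3) and a log2 fold change of 1.29 (adjusted p = 0.00313, edgeR's quasi-likelihood test). H2afz had 0.58 and H3f3b 0.51, and neither passed edgeR's test without the block. In that fit 1 variant was higher, against 0.710% of all genes tested. By an unadjusted p under 0.05, 8 were higher, against 15.4% of all genes, and 0 lower, against 17.1%. With the block 8 were higher, against 11.8% of all genes, and with the block and the offset 5 were, against 8.67%. DESeq2 called 2 variants higher, against 2.19% of all genes, and 0 lower, against 402 of 12255. Their summed log2 ratio within pairs was 0.58 ± 0.14, against 1.06 ± 0.11 for the histone cluster genes (SD, n = 3). With the block and the offset for GC content and length, the median log2 fold changes were closer, at 0.39 for the tested variants and 0.42 for the tested histone cluster genes. Among the latter it was 0.79 for the 11 tested H4 genes and 0.19 for the 16 tested members outside H4.

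Markers of dividing, glial and vascular cells were measured beside the members. Of 20 genes of S phase to mitosis, 12 were tested, and the median log2 fold change was 0.35. In edgeR with or without the block, 0 passed in either direction. Over all 12255 genes, 87 were higher and 289 lower without the block, and 1442 and 1623 with it. At an unadjusted p under 0.05, 2 were higher, against 15.4% of all genes, and 0 lower, against 17.1%. DESeq2 called 0 in either direction, against 2.19% of all genes higher and 402 of 12255 lower. The proliferation marker Mki67 had 4.99 ± 1.18 CPM on polyribosomes and 6.73 ± 2.56 CPM in total RNA, and Top2a had 2.41 ± 1.03 and 3.11 ± 0.313 CPM (SD, n = 3). Both overlapped between groups, and all 20 genes had a count. Of the 12 tested, 9 had positive and 3 had negative log2 fold changes. The summed level of the 20 genes was 106 to 126 CPM on polyribosomes and 97.6 to 101 CPM in total RNA. These sums did not overlap, and the log2 ratio within pairs was 0.19 ± 0.16 (SD, n = 3).

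The sums of the glial and endothelial lists were higher on polyribosomes on the mean, by log2 ratios within pairs of 0.43 ± 0.23 (5 astrocyte genes), 0.40 ± 0.08 (4 oligodendrocyte genes), 0.41 ± 0.17 (4 oligodendrocyte precursor genes), 0.47 ± 0.25 (5 microglia genes) and 0.29 ± 0.37 (4 endothelial genes, SD, n = 3). The endothelial ratio was 0.28, -0.080 and 0.66 in pairs 1 to 3, so its sign was not the same in all. The summed astrocyte level was 5047 to 6913 CPM against 4110 to 4547 CPM, the oligodendrocyte level 9246 to 12406 against 6621 to 9385 CPM, and the precursor level 786 to 808 against 530 to 646 CPM. The microglia level was 659 to 780 against 421 to 597 CPM, and the endothelial level 215 to 415 against 224 to 263 CPM. None of these 22 genes was at 0 or passed edgeR's test without the block, in which 0.710% of all genes were higher. DESeq2 called Gfap, Aldh1l1 and Mag higher, against 2.19% of all genes. With the block 10 were higher, against 11.8% of all genes, and 0 lower, against 1623 of 12255. With the block and the offset 13 were higher, against 8.67% of all genes, and 0 lower, against 893 of 12244. The median log2 fold changes of the 5 lists with block and offset were 0.54, 0.50, 0.47, 0.41 and 0.29 in the order above, beside 0.42 for the tested histone cluster genes. Among the latter, the H4 genes had 0.79 and the members outside H4 had 0.19. Of the 4 genes of progenitors and new neurons, 3 were tested. Dcx was lower, with a log2 fold change of -1.22 (adjusted p = 0.00961, edgeR's quasi-likelihood test), where 289 of all 12255 genes were lower. The sum of the 4 was 36.8 to 50.1 CPM on polyribosomes and 59.4 to 66.1 CPM in total RNA. The part of these cell types in the histone values was not tested.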

How the data were processed

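RNA of 3 NMDA polyribosome and 3 unstimulated total samples was analysed. The authors depleted ribosomal RNA, made strand-specific libraries, sequenced 100-nt paired ends, mapped them to GRCm38 with STAR (2.5.2b in the submitters' processing notes) and deposited unnormalized counts per gene on Gencode vM6; whether counting used strand or multiply mapped reads is not given in the sources used here. The table's DESeq2 columns (mean, fold change, error, statistic and p-values) were not used. Members and gene lists were chosen with earlier results of these data known.

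Counts were analysed with edgeR 4.0.16 in R 4.3.3 (TMM, filterByExpr, quasi-likelihood test, group as the only term, Benjamini-Hochberg adjustment over all genes tested, threshold 0.01). The procedure was tested on simulated data. Library totals ran from 1044955 to 7361580 counts, and replicates differed by more than sampling noise. Same-numbered libraries share a label in the table and were taken as aliquots of 1 preparation. After subtraction of the group means, their values correlated over genes at 0.37, 0.26 and 0.38 (other pairings -0.35 to 0.11). They were treated as pairs in the ratios within pairs and in the fits with the replicate block. The other fits, the main edgeR test and DESeq2 among them, did not use the pairing. Alternatives were the replicate block, DESeq2 1.42.0, other normalizations and filters, a GC and length offset (natural splines with 5 degrees of freedom each, Gencode vM21, 12244 genes) and leaving out each library. Replicates are preparations. Without the block, p-values measure the spread between preparations, and with it the spread of the difference within preparations.

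Sequence features came from Gencode vM21 transcripts, clipped to the counted interval for members with a single exon, matched by ID for 66 members and by symbol for 2. CPM per kb is CPM over that length. Described members were the 2 most abundant of each class by mean CPM, every member past the threshold and the 3 lowest fold changes; of the lists, Slbp, Npat, H2afz, H3f3b, Mki67, Top2a and genes past the threshold.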

Additional observations from a re-analysis of the deposited data

How the results depend on the processing

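In all 17 settings 0 members were lower, beside 22 to 1623 over all genes. The 5 calls (all higher, beside 87 over all genes) became 9 without a filter on low counts (all genes 476), 13 with the replicate block (1442), 8 with the replicate block and the GC and length offset (1062), and 2 with that offset alone (29). They were 4 to 7 with DESeq2, other normalizations and other filters, beside 42 to 268 over all genes and with 8 to 40 members tested. Leaving out 1 library gave 0 (without total replicate 1 or 2) to 5, and 0 to 61 over all genes. The median log2 fold change of the members tested, 1.00, was 0.88 with total counts only (all genes -0.11), 1.10 with no filter (61 members), 0.87 with a filter on the mean (40 members), 1.32 with at least 10 counts in every library (8 members), 0.93 with the replicate block, and 0.42 and 0.39 with the offset, with and without the block. Leaving out 1 library gave 0.79 to 1.08. The log2 ratio of the summed CPM, 1.07, was 0.97 with total counts only, 0.96 in pair 2 alone, 1.01 without Hist1h4d and 0.86 to 1.22 with 1 library left out. Of 202 alternative values of single members, 169 kept sign and side of the threshold, 22 lost and 8 gained the call. The other 3 were sign changes of Hist2h2be, to 0.011 and 0.054 with the offset, with and without the block, and to 0.21 without total replicate 1, in a range from -0.31 over the libraries left out. The causes of these changes were not tested, other than the numbers of genes and libraries given. The 250 histone counts of total replicate 3 limit what can be seen for single copies. Near-identical copies make the assignment of reads uncertain.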
